A study of Homo sapiens with 6 samples.

Results

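The cytosolic HSP90 chaperone genes HSP90AA1 and HSP90AB1, the co-chaperone genes STIP1, AHSA1, FKBP4, PTGES3 and CDC37, the small heat shock protein gene HSPB1, its partner gene BAG3 and the regulator gene HSF1 were examined in KYSE150 cells. They were chosen by name, as 10 of the 67140 gene identifiers in the count table, and all 10 passed the filter on low counts. KYSE150 is an established human esophageal squamous cell carcinoma (ESCC) line. The study set 3 samples with a control hairpin (shCtrl) against 3 samples with a hairpin directed at the long noncoding RNA AC007128.1 (shAC007128.1), to find genes that respond to its knockdown. The paper describes lentivirus infection and stable lines made with puromycin. It does not say for each hairpin that the sequenced cells were made this way. That all 6 samples carry a vector and were under the same selection is therefore assumed. Poly-A RNA was sequenced as paired-end reads. The labels do not say that samples of a group are separate cultures, so p-values measure the spread between these samples, which may be technical.

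HSP90 is an ATP-driven chaperone that acts late in the folding of many kinases, steroid hormone receptors and other regulators, its clients. HSP90AA1 encodes the stress-inducible cytosolic form and HSP90AB1 the constitutive one. Co-chaperones pass clients to HSP90 and set the pace of its ATP cycle. Small heat shock proteins hold unfolding proteins without using ATP, and HSF1 is the transcription factor that drives many chaperone genes in heat and other proteotoxic stress by binding inverted GAA repeats known as heat shock elements. In resting cells HSF1 is held inactive by chaperones, HSP90 among them.

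Since HSF1 binds such repeats, the sequence before the transcription start of the members is shown first. RefSeq promoter windows (GRCh38.p14, 250 bases before to 50 after a start) were taken for 8 of the 10 genes, 13 windows in all. No window of FKBP4 or HSF1 was included, so whether their promoters hold an element was not tested. Both strands were searched for GAANNTTC and TTCNNGAA, each of which is its own reverse complement and which may overlap one another. An element was found in 4 of the 13 windows (30.8%), belonging to HSP90AA1, HSP90AB1, STIP1 and HSPB1, and in 13.5% of all 35116 windows. A run of 3 units (GAANNTTCNNGAA or TTCNNGAANNTTC) was found in 2 of the 13 windows, 1 of HSP90AA1 and 1 of HSP90AB1, and in 0.49% of all windows. These matches describe letters and show no binding. The stretches below are those with an element, and that of BAG3, which has none in its 1 window. They read 5′ to 3′ on the gene's strand, with matches in capitals.
HSP90AA1, chr14:102087045-102087294, minus strand: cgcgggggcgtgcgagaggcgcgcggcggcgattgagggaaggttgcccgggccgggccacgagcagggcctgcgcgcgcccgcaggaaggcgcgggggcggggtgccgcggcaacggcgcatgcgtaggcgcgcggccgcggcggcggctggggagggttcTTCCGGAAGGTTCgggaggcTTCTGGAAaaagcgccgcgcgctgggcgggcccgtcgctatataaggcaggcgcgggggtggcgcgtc
HSP90AB1, chr6:44247693-44247942, plus strand: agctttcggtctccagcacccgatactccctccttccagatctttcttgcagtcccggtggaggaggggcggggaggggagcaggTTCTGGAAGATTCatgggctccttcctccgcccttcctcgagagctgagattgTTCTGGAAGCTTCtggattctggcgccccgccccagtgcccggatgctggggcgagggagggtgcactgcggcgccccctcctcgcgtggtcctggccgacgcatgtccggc
HSPB1, chr7:76302423-76302672, plus strand: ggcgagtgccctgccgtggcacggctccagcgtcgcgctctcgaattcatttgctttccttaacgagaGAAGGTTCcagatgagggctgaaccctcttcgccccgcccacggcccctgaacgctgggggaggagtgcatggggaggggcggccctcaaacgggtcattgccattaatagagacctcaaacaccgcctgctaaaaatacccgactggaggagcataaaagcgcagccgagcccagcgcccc
STIP1, chr11:64186173-64186202, plus strand: cttctagtaggTTCCAGAAggcggcgcgtg
BAG3, chr10:119651130-119651379, plus strand: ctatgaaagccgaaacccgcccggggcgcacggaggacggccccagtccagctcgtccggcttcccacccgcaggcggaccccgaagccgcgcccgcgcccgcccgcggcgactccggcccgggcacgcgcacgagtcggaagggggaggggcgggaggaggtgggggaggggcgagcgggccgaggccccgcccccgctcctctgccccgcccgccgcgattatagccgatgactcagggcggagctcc

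In HSP90AA1 the 3 matches begin at bases -88, -83 and -68 from the start. The HSP90AB1 window holds 4 matches, in 2 overlapping pairs beginning at -165 and -160 and at -112 and -107. It is the last of 3 windows of that gene, and its start lies inside the annotated gene, as does that of the HSP90AA1 window. The match of HSPB1 begins at -182 and that of STIP1 at +14, just after the start, which is why its short stretch is cut from the transcribed side. Windows of AHSA1, PTGES3, CDC37 and BAG3 held no match, nor did the other windows of HSP90AA1, HSP90AB1 and STIP1, which says only that these letters are absent from those windows.

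Library totals were between 55764405 and 78610457 counts, and 3 counts correspond to 0.0373 to 0.0546 CPM, counts scaled to a common library size with edgeR's TMM factors. The targeted AC007128.1 had 69, 33 and 53 counts in shCtrl replicates 1, 2 and 3 and 18, 37 and 15 in the shAC007128.1 samples. These groups overlapped, and a fall was not detected at this depth (log2 fold change -0.77, SE 0.51, edgeR adjusted p = 0.271). The paper reports from qPCR, a separate measurement, that its hairpin lowered AC007128.1 RNA. All 11 squamous epithelial markers were above 1 CPM in every sample, with a summed level of 2212 to 2306 CPM in shCtrl and 3049.8 to 3764 CPM in shAC007128.1 cells. At an edgeR adjusted p of at most 0.05, 6 of the 11 were higher, 1 (DSG3) was lower and 4 did not pass. Without shAC007128.1 replicate 3, 7 were higher and 1 lower. Over all genes tested 21.0% were higher and 19.8% lower by that limit. Of the fibroblast markers 1 of 6 was above 1 CPM throughout (COL1A1; sums of 14.8 to 15.9 and 20.8 to 23.6 CPM), of the leukocyte markers 1 of 6 (CD68; 59.4 to 68.3 and 14.8 to 24.1 CPM), and of the endothelial markers 0 of 4 (2.3 to 3.23 and 0.302 to 2.02 CPM). Their part in the results was not tested. ShAC007128.1 replicate 3 stood apart from the other 2 samples of its group, with a chi-square per gene of 105 and 82.5 against them, where the other pairs within a group had 37 to 42.1. Fold changes, ratios and list counts without it follow the values with it.

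All 10 genes had higher mean levels in shAC007128.1 than in shCtrl cells. The changes ranged from a log2 fold change of 0.21 for FKBP4 to 2.49 for HSP90AA1, with a median of 0.60, where the median over all 19254 genes tested was -0.02. By the call rule of the study, an adjusted p of at most 0.05 and at least a 2-fold change, HSP90AA1 and BAG3 were called higher and 0 were called lower. Over all genes tested, 5.57% were called higher and 10.1% lower by that rule. Without the limit on fold change 8 of the 10 passed in the upward direction and 0 in the downward one, where 21.0% and 19.8% of all genes did. The levels of the groups did not overlap, with shAC007128.1 higher, for 9 of the 10 genes and for 27.0% of all genes. In bulk RNA a change in the level per cell and a change in the share of cells that express a gene cannot be told apart.

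**Figure D1:**
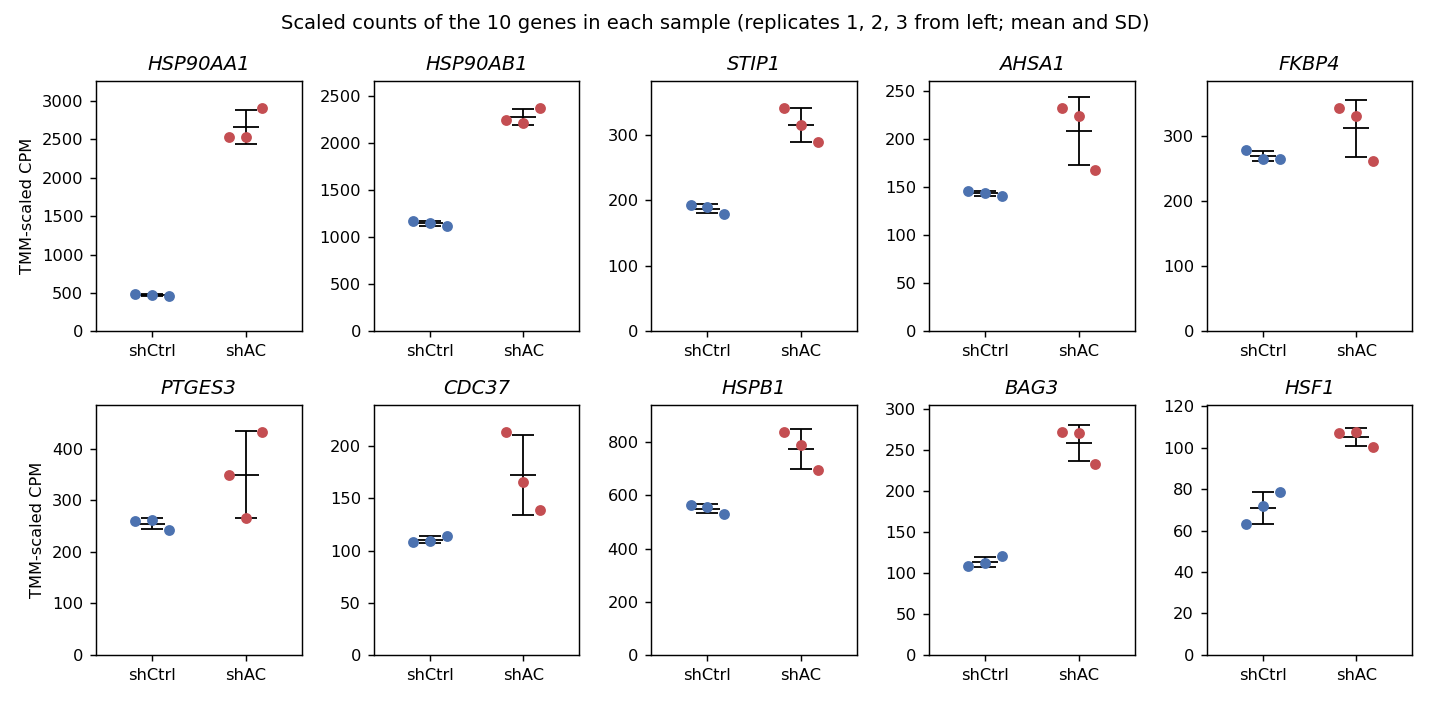
Scaled counts (CPM, vertical axis from 0, a scale of its own in each panel) of the 10 genes in the 3 shCtrl samples (blue) and the 3 shAC007128.1 samples (red, labelled shAC), with replicates 1 to 3 from left to right; horizontal marks are means and bars SD. Every red point lies above every blue point except for FKBP4, whose red replicate 3 lies below all 3 shCtrl samples.

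The largest change was in HSP90AA1, the stress-inducible HSP90 (ENSG00000080824, chromosome 14, 102080742 to 102139699, minus strand, hg38). Its level was 479.7, 473.5 and 464 CPM in shCtrl replicates 1, 2 and 3 and 2536, 2527 and 2913 CPM in the shAC007128.1 samples. The groups lay far apart, with the lowest shAC007128.1 sample above 5 times the highest shCtrl sample. Means were 472 ± 8.01 and 2658.5 ± 220.1 CPM (SD, n = 3), a 5.63-fold difference (log2 fold change 2.49, 95% interval 2.33 to 2.66, edgeR adjusted p = 8.39e-06). The two-sided exact permutation test gave p = 0.1, the smallest value that 3 samples against 3 allow. WDR20 shares 197 of its 5097 exonic bases on the opposite strand, and the sources used here do not state whether strand was used in counting.

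HSP90AB1, the constitutive HSP90 (ENSG00000096384, chromosome 6, 44246166 to 44253888, plus strand), was the most abundant of the 10 per length in both groups. In shCtrl replicates 1, 2 and 3 it stood at 1177, 1148 and 1122 CPM, and in the shAC007128.1 samples at 2244, 2209.8 and 2376 CPM. The ranges did not overlap and were narrow in both groups. The mean went from 1149 ± 27.4 to 2277 ± 87.9 CPM (SD, n = 3), 1.98-fold, just under the 2-fold limit (log2 fold change 0.99, 95% interval 0.87 to 1.11, edgeR adjusted p = 3.09e-05). HSP90AB1 was called higher, for a total of 3 called genes, without shCtrl replicate 1 or without shAC007128.1 replicate 2, and when the counts were corrected for GC content (log2 fold change 1.03).

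The 2 HSP90 genes thus changed by unequal amounts within the same libraries. Per length (TPM, from counts and the union of exons), HSP90AA1 was 19.2%, 19.4% and 19.5% of the summed HSP90AA1 and HSP90AB1 level in shCtrl cells. In the shAC007128.1 samples it was 39.8%, 40.1% and 41.7%. The ratio of HSP90AA1 to HSP90AB1 counts was 2.84 times higher in shAC007128.1 than in shCtrl cells (log2 difference 1.5), with no overlap and an exact permutation p of 0.1. With the longest transcript as gene length the mean shares were 23.8% and 47.0%. Both genes together held 0.166% ± 0.0012 of all counts in shCtrl and 0.481% ± 0.0264 in shAC007128.1 cells (SD, n = 3), and the 10 genes together 0.340% ± 0.00102 and 0.724% ± 0.0129. Pseudogenes drew few reads, as the 26 pseudogenes named after members summed to 38 to 55 counts per sample and to at most 0.266% of any member's count.

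**Figure D2:**
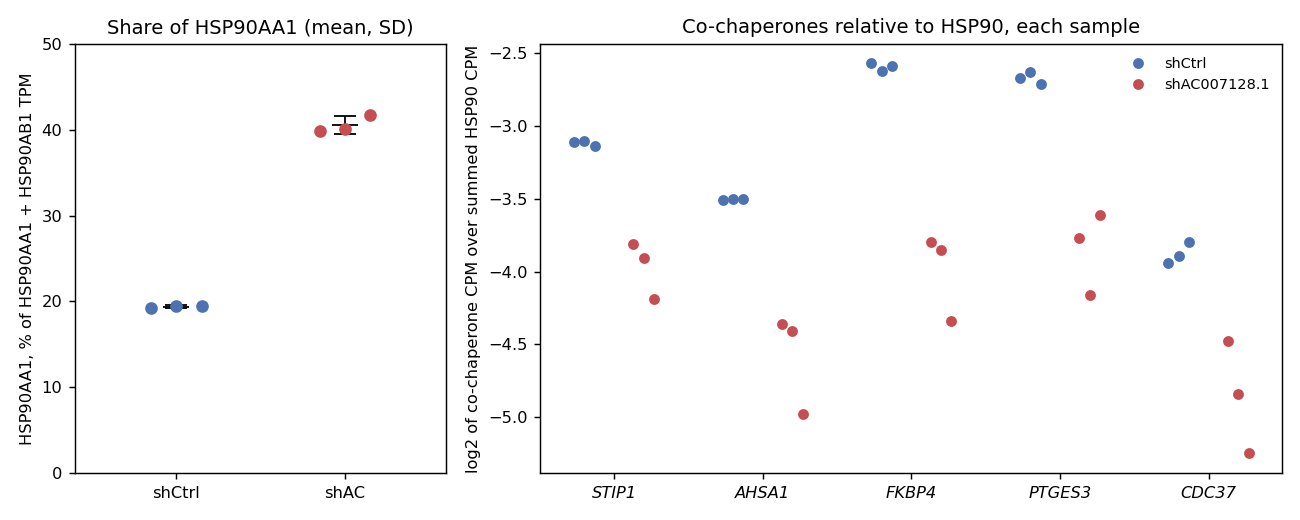
Left, HSP90AA1 as a percent of summed HSP90AA1 and HSP90AB1 TPM in each sample (means and SD; axis from 0), 19.2% to 19.5% in shCtrl and 39.8% to 41.7% in shAC007128.1 (labelled shAC). Right, log2 of each co-chaperone's CPM over the summed CPM of both HSP90 genes, 1 point per sample, lower in every red shAC007128.1 sample than in any blue shCtrl sample.

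Among the co-chaperones, the most significant change was in STIP1 (ENSG00000168439, chromosome 11, 64185272 to 64204543, plus strand), also called HOP, which bridges HSP70 and HSP90 and hands over clients. STIP1 measured 193, 189 and 179 CPM in the shCtrl samples and 341, 314 and 289 CPM in the shAC007128.1 samples. The groups did not overlap. Its log2 fold change was 0.75 (95% interval 0.57 to 0.93, edgeR adjusted p = 0.000387). Of its exonic bases, 445 of 4601 are shared with a long noncoding RNA gene on the other strand.

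AHSA1 encodes the activator of the HSP90 ATPase (ENSG00000100591, chromosome 14, 77457870 to 77469472, plus strand). It was at 145, 143 and 141 CPM in shCtrl cells and at 232, 223.5 and 167 CPM in shAC007128.1 cells, where replicate 3 was the lowest but still above all controls. Its change of 0.54 on the log2 scale passed the test (95% interval 0.25 to 0.83, edgeR adjusted p = 0.0117). CDC37, the adaptor that brings kinases to HSP90 (ENSG00000105401, chromosome 19, 10391133 to 10420121, minus strand), was at 108, 109.5 and 114 CPM and at 214, 165 and 139 CPM. The groups were again separate, with a wide spread in shAC007128.1 cells. CDC37 rose by a log2 fold change of 0.64 (95% interval 0.29 to 1.0, edgeR adjusted p = 0.0121).

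The remaining co-chaperones did not pass the test. FKBP4, or FKBP52, an immunophilin of steroid receptor complexes (ENSG00000004478, chromosome 12, 2794970 to 2805423, plus strand), was at 278, 263 and 264 CPM in shCtrl cells and at 342.5, 329.5 and 260.5 CPM in shAC007128.1 cells. Replicate 3 lay below all controls and replicates 1 and 2 above them, so the groups overlapped (log2 fold change 0.21, 95% interval -0.04 to 0.46, edgeR adjusted p = 0.16, exact permutation p = 0.4). Without that replicate FKBP4 passed, at 0.31 on the log2 scale (edgeR adjusted p = 0.00229). Of the FKBP4 exonic bases, 11.4% are shared with noncoding genes on the other strand.

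PTGES3, or p23, holds HSP90 in its closed, client-bound state (ENSG00000110958, chromosome 12, 56663341 to 56688408, minus strand). It measured 259.8, 263 and 243 CPM in shCtrl cells and 350.0, 265 and 434 CPM in shAC007128.1 cells, the widest spread of the 10 genes, with a coefficient of variation of 24.1% in shAC007128.1 cells. The groups were barely separate, since replicate 2 of shAC007128.1 lay just above the highest control. Its log2 fold change of 0.45 missed the limit (95% interval 0.07 to 0.84, edgeR adjusted p = 0.0599). It was 0.62 without shAC007128.1 replicate 2 (edgeR adjusted p = 0.00749), and DESeq2 gave 0.45 with all samples (adjusted p = 0.0326).

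Relative to the summed HSP90 level, all 5 co-chaperones were lower in every shAC007128.1 sample than in any shCtrl sample. Any gene that rose less than summed HSP90 has a lower ratio. Over all genes tested the median log2 fold change was -0.02. The share of all genes with a lower ratio was not computed, so the fall is not shown to be particular to co-chaperones. The ratio to summed HSP90 counts changed to 0.552 times its shCtrl value for STIP1, 0.506 for CDC37, 0.472 for AHSA1, 0.442 for PTGES3 and 0.378 for FKBP4. Each exact permutation p was 0.1, the smallest possible, also after adjustment over the 6 ratios computed (the 5 co-chaperones and HSP90AA1 to HSP90AB1). Without shAC007128.1 replicate 3 the log2 differences were -0.75 for STIP1, -0.79 for CDC37, -0.88 for AHSA1, -1.30 for PTGES3 and -1.23 for FKBP4, and 1.47 for HSP90AA1 to HSP90AB1.

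HSPB1, or HSP27, a small heat shock protein found in most tissues (ENSG00000106211, chromosome 7, 76302673 to 76304295, plus strand), was next to HSP90AB1 per length in shCtrl cells. It measured 563, 555 and 531 CPM in shCtrl replicates 1, 2 and 3 and 840.2, 789.9 and 694 CPM in the shAC007128.1 samples. No shAC007128.1 sample reached down to the controls. HSPB1 rose by a log2 fold change of 0.50 (95% interval 0.31 to 0.68, edgeR adjusted p = 0.00245). It was 0.78 after correction for GC content.

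BAG3 couples HSP70 to small heat shock proteins and takes part in selective autophagy of misfolded proteins (ENSG00000151929, chromosome 10, 119651380 to 119677819, plus strand). It stood at 108, 113 and 120.5 CPM in shCtrl and at 273, 270.5 and 233 CPM in shAC007128.1 cells. The groups were well apart. Its promoter window, of which the 250 bases before the start are shown above, held no match to the element. BAG3 rose 2.27-fold (log2 fold change 1.19, 95% interval 0.98 to 1.39, edgeR adjusted p = 8.82e-05), the second largest change of the 10 after HSP90AA1.

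HSF1 itself (ENSG00000185122, chromosome 8, 144291591 to 144314720, plus strand) was the least abundant of the 10. Its level was 63.0, 71.7 and 78.4 CPM in shCtrl replicates 1, 2 and 3 and 107, 108 and 100.2 CPM in the shAC007128.1 samples. The groups did not overlap, and HSF1 varied more in the controls (coefficient of variation 10.9%) than any other of these genes. It rose by a log2 fold change of 0.56 (95% interval 0.34 to 0.79, edgeR adjusted p = 0.00336), or 0.86 after correction for GC content. HSF1 is controlled largely as a protein, and transcript levels do not measure its activity.

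**Figure D3:**
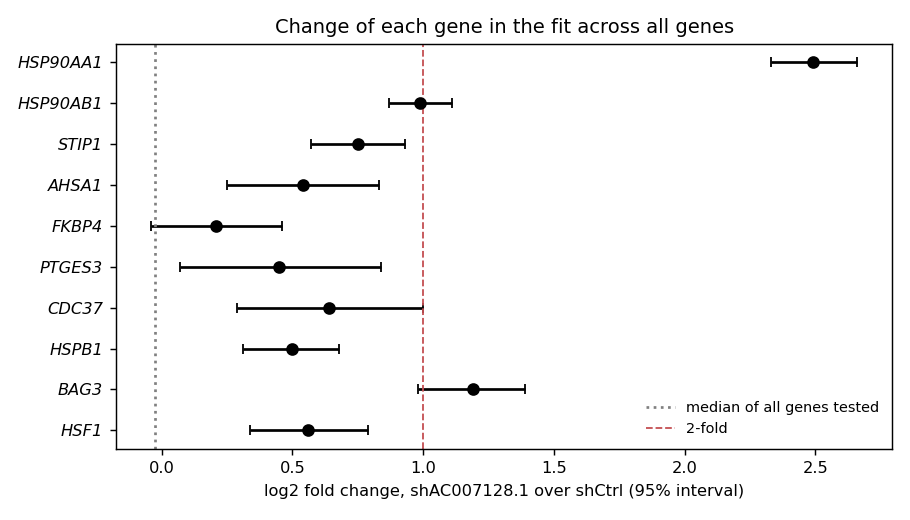
Log2 fold change of each gene between shAC007128.1 and shCtrl cells with its 95% interval from the fit across all genes; the dotted line is the median of all genes tested (-0.02) and the dashed line a 2-fold change. HSP90AA1 (2.49) stands to the right of all others, HSP90AB1 (0.99) is at the 2-fold line, and the interval of FKBP4 reaches below 0.

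Expressed per length, the order in shCtrl cells was HSP90AB1 (1227 ± 7.83 TPM; SD, n = 3), HSPB1 (1077 ± 10.4), HSP90AA1 (295 ± 1.17), PTGES3 (239 ± 6.09), FKBP4 (165.5 ± 3.64), AHSA1 (155 ± 0.698), BAG3 (132 ± 10.0), STIP1 (129 ± 2.12), CDC37 (116 ± 5.88) and HSF1 (42.7 ± 5.5). Among neighbours in this order BAG3 and STIP1 alone did not differ beyond their spread, since the STIP1 samples (127 to 131 TPM) lay within the range of BAG3 (124 to 143 TPM). In shAC007128.1 cells HSP90AA1 moved past HSPB1 to the second place (1639.6 ± 106.0 and 1503.5 ± 163.3 TPM), though the ranges of these genes overlapped. PTGES3 (322 ± 70.3), BAG3 (298 ± 31.0), AHSA1 (222 ± 41.0), STIP1 (215 ± 19.7), FKBP4 (189.7 ± 29.8) and CDC37 (179 ± 40.1) followed. The ranges of PTGES3 and BAG3 overlapped, as did those of the next 4 genes among themselves. HSF1 (62.3 ± 3.84 TPM) was again last. The order in the middle depends on the length used. With the longest transcript in place of the union of exons, AHSA1 stood in the fourth place in both groups (269 and 382 TPM) and BAG3 in the ninth place in shCtrl (112 TPM) and the eighth in shAC007128.1 cells (249 TPM). CDC37 (172 TPM in shCtrl and 262 TPM in shAC007128.1 cells) then lay above BAG3 in both groups.

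Sample by sample, shAC007128.1 replicate 3 departed from the other 2 of its group in a direction that went with GC content. The 3 members with the lowest GC content of the longest transcript, PTGES3 (42.9%), HSP90AA1 (45.2%) and HSP90AB1 (48.1%), were higher in replicate 3, by 0.51, 0.20 and 0.09 on the log2 scale. The 7 others, with a GC content from 51.0% to 64.7%, were lower there, between -0.44 for AHSA1 and CDC37 and -0.10 for HSF1. Replicate 3 was not the furthest from its group for every member. Replicate 2 departed further for PTGES3 (-0.56) and replicate 1 for CDC37 (0.50), and replicate 1 as far for STIP1 (0.18). For the remaining members replicate 3 departed the most. All genes tested showed the same order when split by GC content into 4 bins of 4789 genes each, since replicate 3 differed from the other 2 by a median of 0.25, 0.10, -0.09 and -0.28 from the lowest to the highest bin. The median log2 fold change between the groups also went from 0.17 in the lowest bin through 0.00 and -0.09 to -0.20 in the highest. Without replicate 3 the log2 fold change was 2.41 for HSP90AA1, 0.94 for HSP90AB1, 0.80 for STIP1, 0.66 for AHSA1, 0.77 for CDC37, 0.56 for HSPB1, 1.24 for BAG3 and 0.59 for HSF1, each still past the adjusted p limit, and 0.26 for PTGES3 (edgeR adjusted p = 0.129). The part of GC content in the differences between the groups was not tested beyond a correction. Corrected for it, HSP90AA1 was at a log2 fold change of 2.48 and BAG3 at 1.35, and FKBP4 passed the test (0.29, edgeR adjusted p = 0.0292) while PTGES3 did not (0.38, edgeR adjusted p = 0.0641).

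**Figure D4:**
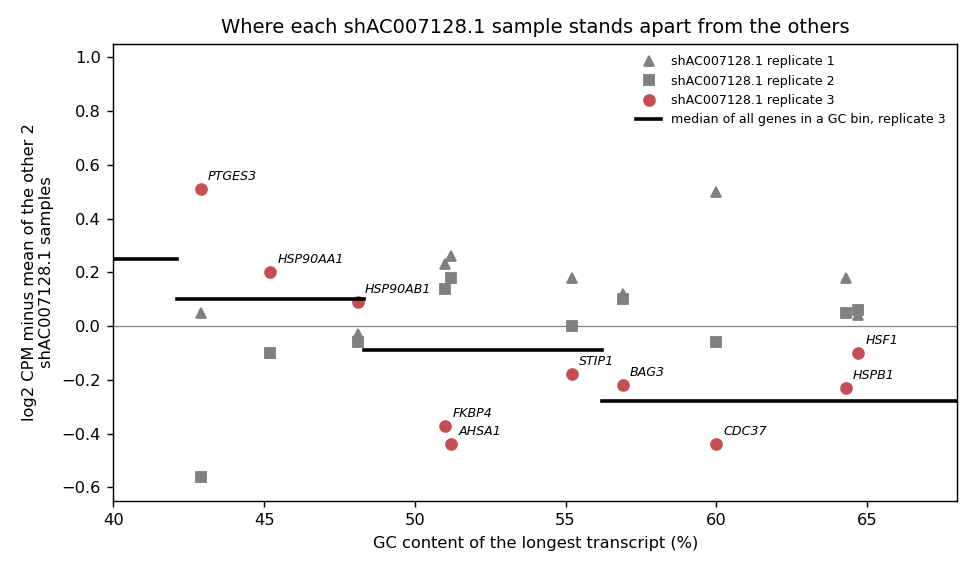
Log2 CPM of each of the 10 genes in 1 shAC007128.1 sample minus the mean of the other 2 (vertical axis) against the GC content of its longest transcript (horizontal axis, percent); red circles are replicate 3, grey marks replicates 1 and 2, and black lines the median of all genes in a GC bin (1 of 4) for replicate 3. Red points lie above 0 for the 3 members of lowest GC content and below 0 for the 7 others.

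Other genes of the pathway were taken from lists that hold no member. The counts for each list stand against the shares over all genes tested. Of these, 5.57% were called higher and 10.1% lower, and 21.0% and 19.8% passed at any fold. Of 29 other HSP90 co-chaperones tested, 4 were called higher and 0 lower, and without the limit on fold 13 were higher and 2 lower (median log2 fold change 0.32). CHORDC1, a zinc-binding co-chaperone, went from 59.0, 55.7 and 52.4 CPM to 131, 145 and 163 CPM (1.39, edgeR adjusted p = 8.61e-05). FNIP2, a folliculin partner that slows the HSP90 ATPase, had a log2 fold change of 1.40, FKBP5, an immunophilin of the glucocorticoid receptor complex, 1.30, and CACYBP, which shares a domain with SUGT1, 1.16. SUGT1, which with HSP90 supports kinetochore assembly, rose by 0.96, just under 2-fold. The 2 that fell were STUB1 (CHIP, the ubiquitin ligase for chaperone-bound proteins), by 0.74 on the log2 scale, and FKBP8, a mitochondrial membrane immunophilin, by 0.49. Both had groups that did not overlap. The share of all genes whose groups lay apart in the downward direction was not computed.

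The HSP90 genes of other compartments did not rise. HSP90B1 (GRP94), the HSP90 of the endoplasmic reticulum, was at 1768, 1835 and 1834 CPM in shCtrl and at 752.5, 739.5 and 1015 CPM in shAC007128.1 cells, with no overlap. It was called lower (log2 fold change -1.12, edgeR adjusted p = 0.000457). The mitochondrial TRAP1 was at 248, 233 and 245 CPM and at 224, 231 and 218 CPM, also with no overlap. Its log2 fold change was -0.11 and did not pass the test (edgeR adjusted p = 0.204).

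Among 10 other genes listed with the small heat shock proteins, 4 passed the filter, and 1 of these was called higher and 3 were higher at any fold. CRYAB, or alpha B-crystallin, was low throughout, at 0.574, 0.211 and 0.427 CPM in shCtrl and 3.01, 3.02 and 2.15 CPM in shAC007128.1 cells (log2 fold change 2.75, edgeR adjusted p = 0.00132). HSPB8, which forms a complex with BAG3, rose by 0.82 and HSPB11 by 0.69. Of the 5 other BAG genes, BAG1 was called higher (1.22, edgeR adjusted p = 0.0106), BAG4 rose by 0.38, and BAG2, BAG5 and BAG6 did not pass the test.

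In the HSF family and its regulators, 6 of 7 genes were tested and 0 were called by the 2-fold rule. HSF2, a partner of HSF1 in mixed trimers, rose from 17.5, 16.5 and 17.7 CPM to 25.5, 23.8 and 33.1 CPM (log2 fold change 0.67, edgeR adjusted p = 0.00792). HSF4 fell by 0.55 on the log2 scale, and HSBP1, a small protein that binds HSF1 trimers, rose by 0.26.

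Of the lists examined, that of other genes known as HSF1 targets, mostly chaperone genes, held the largest rises. Of 19 tested, 11 were called higher and 0 lower, 16 were higher at any fold, and the median log2 fold change was 1.38. HSPA8, the constitutive HSP70, went from 184, 191.5 and 181 CPM to 1407, 1394 and 1422 CPM (2.92, edgeR adjusted p = 1.05e-06). DNAJA1, a J-domain partner of HSP70, rose by 2.19. HSPA1A and HSPA1B, the stress-inducible HSP70 genes, rose by 3.37 and 3.36, but are nearly identical in sequence, so the split of counts between them is uncertain. HSPA1L (0.43) and DNAJB6 (0.23) were among those that did not pass the test. UBB, a ubiquitin gene that most cells express, was listed at 0 in every sample and was not tested, so its 0 is not read as absence of the transcript. CHORDC1, HSPB8 and CRYAB are also counted in lists above.

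Of 40 tested genes for kinases, receptors and other client proteins of HSP90, 7 were called higher and 1 lower, and 18 and 6 passed at any fold (median log2 fold change 0.19). Over all genes tested the shares were 5.57% and 10.1%, and 21.0% and 19.8% at any fold. The client called lower was EGFR, the epidermal growth factor receptor, at 1625, 1632 and 1615.5 CPM in shCtrl and 606, 607 and 658 CPM in shAC007128.1 cells (-1.38, edgeR adjusted p = 1.6e-05). The 3 called higher with the smallest p were CDK6, a G1 cyclin-dependent kinase (2.1), PLK1, a mitotic kinase (1.23), and WEE1, the inhibitory kinase of CDK1 (1.64). These are transcript levels, and HSP90 acts on client proteins. Without shAC007128.1 replicate 3, no gene tested in the 7 lists gained or lost a call by the 2-fold rule. HSP90B1 was then at a log2 fold change of -1.29 and BAG1 at 1.45. At any fold FKBPL, UNC45A, TOMM70 and LATS1 then passed and BAG4 did not (edgeR adjusted p = 0.0531), which made 15 co-chaperones higher and 3 lower, 1 other BAG gene higher, and 7 clients lower.

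**Figure D5:**
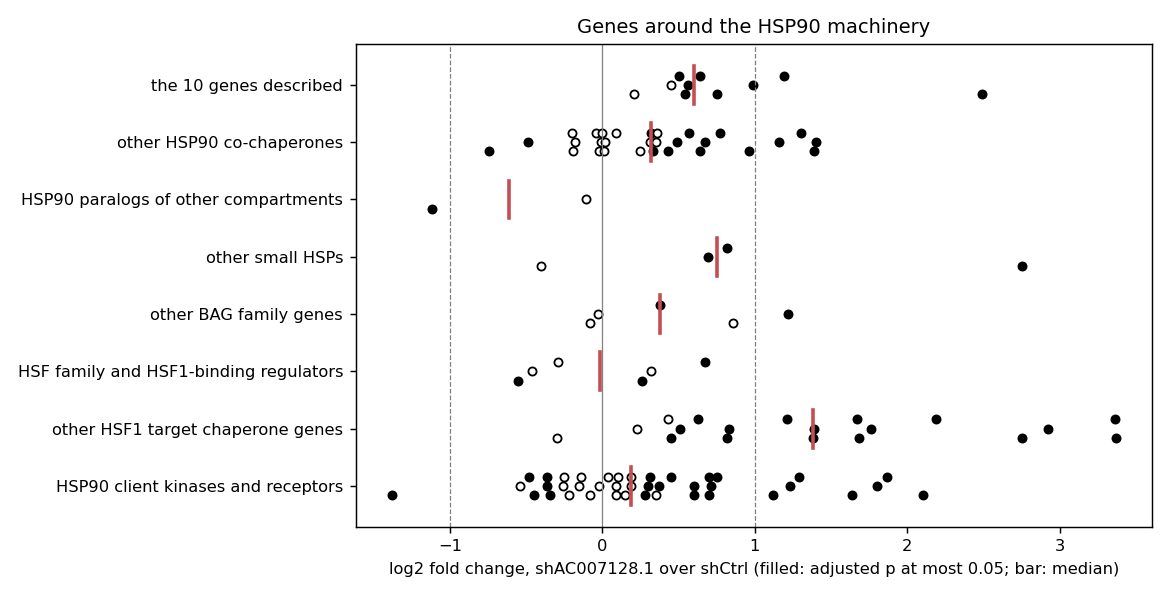
Log2 fold change between shAC007128.1 and shCtrl cells (horizontal axis) of the genes tested in each list, 1 point per gene, filled at an adjusted p of at most 0.05; red bars are medians and dashed lines mark 2-fold changes. The other HSF1 targets, mostly chaperone genes, have the highest median (1.38), and the 2 HSP90 paralogs of other compartments lie below 0.

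The genes most like a member over the 6 samples were found by the root mean square difference of log2 CPM after centring each gene, among 6649 genes whose log2 CPM averaged 5 or more. HSP90AA1 was closest to MT-ATP6 (0.109), KRT6A (0.154) and DNAJA1 (0.159), where the median over all genes was 1.181. HSP90AB1 was closest to ATL3 (0.026), TENT4A (0.031) and TPGS2 (0.033), against a median of 0.452. HSF1 was closest to SNRNP40 (0.053), CNNM4 (0.057) and BSDC1 (0.057), against 0.31. Between members the difference was 0.153 from HSP90AB1 to STIP1, 0.132 from HSF1 to HSPB1 and 0.671 from HSP90AA1 to BAG3, the nearest member in each case. With 6 samples in 2 groups this measure mostly reflects the change between the groups.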

How the data were processed

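RNA sequencing of 3 shCtrl and 3 shAC007128.1 samples of KYSE150 cells was re-analysed. Filtered reads had been mapped by the authors with TopHat v2.0.9 (hg38), followed by Cufflinks and Cuffdiff. The submitters' processing notes name CASAVA 1.8, TopHat2 2.0.6 and a mouse build beside GRCh38. What the authors deposited is a table of estimated counts for each Ensembl gene, in whole numbers and not normalized. The counting program, annotation release and use of strand are not given in the sources used here. Samples were grouped by title and description, since the treatment text names shAC007128.1 for every sample.

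Low counts were removed with filterByExpr (47886 identifiers). TMM scaling and the quasi-likelihood test of edgeR 4.0.16 in R 4.3.3 followed, with Benjamini-Hochberg adjustment over all 19254 genes tested. A call needed an adjusted p of at most 0.05 and at least a 2-fold change. DESeq2 1.42.0 and limma-voom (limma 3.58.1) were alternatives. TPM used union exon lengths of GENCODE v44, which held 89.9% of the identifiers. The floor of 3 counts, at depths of 55764405 to 78610457 counts, covers counting error only. The steps were tested on simulated data.

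The members and gene lists were chosen with earlier results of these data known. Named genes were all members, any tested gene of the pathway lists, the 3 called clients with the smallest p in each direction, and the 3 genes nearest to HSP90AA1, HSP90AB1 and HSF1. COL1A1 and CD68 were named after their values were seen, as was any gene singled out as an exception. Alternatives were other tests, scalings, filters, gene lengths, motifs and call rules, each sample left out, the replicate block and counts divided by 4. GC content correction, and the gene lists without shAC007128.1 replicate 3, were added after seeing the data. Some listed genes are not reported here by name.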

Additional observations from a re-analysis of the deposited data

How the results depend on the processing

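No member changed direction under any of the 19 alternatives run for each, and HSP90AA1 (log2 fold change 2.41 to 2.53), BAG3 (1.11 to 1.35) and HSP90AB1 (0.91 to 1.03) passed the adjusted p limit in all of them. Without a limit on fold change, 4041 genes were higher and 3820 lower, and 8 members were higher. With glmTreat against a fold of 1.5, STIP1 (0.75, adjusted p = 0.063), AHSA1 (0.54), CDC37 (0.64), HSPB1 (0.50) and HSF1 (0.56) no longer passed. FKBP4 passed without shAC007128.1 replicate 3 (0.31), with GC content correction (0.29) and with that correction and the replicate block (0.29), and ranged from 0.13 to 0.31 when samples were left out. PTGES3 passed with DESeq2 (0.45) and without shAC007128.1 replicate 2 (0.62), and ranged from 0.26 to 0.62. The cause was not tested. With the longest transcript as length the HSP90AA1 share was 23.8% and 47.0%, and 3 alternating units were found in 2 member windows.

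The labels do not say whether same-numbered samples of the 2 groups were handled together. Their deviations from the group means correlated at 0.031, -0.025 and -0.03. With 3 samples per group such values cannot show that no handling was shared. With the replicate block, HSP90AA1 was at 2.49 and BAG3 at 1.18, 2 members were called higher, and 977 genes were called higher and 1692 lower. In shCtrl replicate 1 a count of 4 was held by 1355 genes, more than a count of 3 (761) or 5 (993). With 3 samples per group no test for outlying samples was made.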
